A study of Oryctolagus cuniculus with 20 samples.

Results

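Solute carriers are the SLC families of membrane proteins that move small molecules across the plasma membrane and the membranes of organelles. The 59 solute carrier genes described here are those whose symbol in the study's list of differentially expressed genes (DEGs) starts with SLC and a digit and whose gene identifier is in the count table, which holds 23669 genes. The list was made by the authors from these same valves and holds genes that differed between a treatment and non-treated rabbits, so the comparisons with controls chose the members. Counts and fold changes against controls are therefore a description of the members and no test of them. Of the 59 members, 57 passed the filter on low counts, as did 8683 genes in all, and SLC38A3 and SLC7A10 did not.

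The valves were tricuspid valves of New Zealand white rabbits, one valve library per rabbit and 5 rabbits in each of 4 groups. Control rabbits drank water and were not treated. The other rabbits were given serotonin, pergolide, an ergot-derived dopamine agonist, or dexfenfluramine, an amphetamine-like appetite suppressant that releases serotonin. The daily doses were 80 mg/kg of serotonin, 0.5 mg/kg of pergolide and 20 mg/kg of dexfenfluramine, taken orally over 16 weeks. These are the doses of the sample labels, and the study's text gives a lower dexfenfluramine dose in one place, so that dose is uncertain. The comparisons asked how the carriers differed from controls after each treatment, and whether the drug groups differed from the serotonin group and from one another.

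Many solute carriers couple transport to gradients of sodium, protons or other ions, or exchange one solute for another. In a heart valve, interstitial cells that build collagen and sulphated proteoglycans need zinc, nucleotide sugars and sulphate donors in the Golgi apparatus, amino acids at the surface, and mitochondrial carriers of the SLC25 family that link the cytosol to respiration. Carriers are also cell type markers: cardiomyocytes depend on mitochondrial phosphate and malate-aspartate carriers and on the sodium-calcium exchanger SLC8A1.

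Total counts ran from 3247091 to 5921025 per valve, and the members held 5185 to 12433 counts of each. A single gene took 20.3% to 48.1% of a valve's counts. This was 28.5% to 48.1% in controls, 29.6% to 39.4% after serotonin, 31.2% to 35.7% after pergolide and 20.3% to 34.3% after dexfenfluramine. Levels are given as counts scaled to the size of the library after TMM normalization (CPM), for replicates 1 to 5 of a group in that order. They compare valves for one gene and not genes with one another, since gene length was not taken into account. TMM factors were 0.58 to 1.25 in controls, 0.66 to 1.11 after serotonin, 0.99 to 1.26 after pergolide and 1.08 to 1.72 after dexfenfluramine. Markers of several cell types were checked with the symbols of the same DEG list, which limits them to genes that the study listed. Of 9 markers of valvular interstitial cells 7 were measured, and their summed level was 5069 to 7519 CPM in controls, 5660 to 7534 CPM after serotonin, 6886 to 10437 CPM after pergolide and 7627 to 10776 CPM after dexfenfluramine. Of 14 cardiomyocyte markers 8 were measured, and their sum was 49156 to 150408 CPM in controls, 53127 to 103610 CPM after serotonin, 47790 to 91873 CPM after pergolide and 12432 to 70738 CPM after dexfenfluramine. Both endothelial markers measured (PECAM1 and EMCN, of 7) summed to 135 to 322 CPM in controls, 259 to 336 CPM after serotonin, 117 to 216 CPM after pergolide and 170.4 to 264 CPM after dexfenfluramine. Of 10 adipocyte markers, ADIPOQ, CIDEA and LEP were measured, and their sum was 21.9 to 70.0 CPM in controls, 28.5 to 133 CPM after serotonin, 55.6 to 176 CPM after pergolide and 3.24 to 100.2 CPM after dexfenfluramine. The part of these differences in the carriers' values was not tested. In a whole valve, fewer cells of a type and less RNA per cell cannot be told apart.

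Against controls, more of the carriers were called higher than lower after each drug, and 1 was called after serotonin. A gene counts as called when its p-value in edgeR's quasi-likelihood test, adjusted by the Benjamini-Hochberg method over all 8683 genes, was under 0.05. After pergolide 33 of the 57 tested members were called (57.9%, against 24.8% of all genes), 27 of them higher and 6 lower, where 12.1% of all genes were called higher and 12.7% lower. After dexfenfluramine 25 were called (43.9%, against 28.9% of all genes), 19 higher and 6 lower, where 13.5% of all genes were called higher and 15.4% lower. After serotonin 1 was called (1.75%, against 1.19% of all genes), SLC7A12, which was higher (1.04% of all genes). The median log2 fold change of the members was 0.46 for pergolide, 0.32 for dexfenfluramine and 0.08 for serotonin, and over all genes it was 0.02, 0.03 and 0.01. In 15 members every pergolide valve was above every control valve and in 4 every one was below, where the groups did not overlap in 16.3% of all genes (7.95% higher, 8.34% lower). For dexfenfluramine the numbers were 14 and 5, against 17.0% of all genes (8.26% higher, 8.71% lower). For serotonin they were 1 and 0, against 2.66% (2.05% higher, 0.610% lower). These shares compare genes chosen from a DEG list with all genes, so nothing is read from the excess. When 4 surrogate variables that svaseq estimated were added in a limma-voom fit, 14 members were called for pergolide (11 higher, 3 lower, against 13.3% of all genes called in that fit), 9 for dexfenfluramine (5 higher, 4 lower, against 11.4%) and 1 for serotonin (against 1.23%), which was SLC22A2 and not SLC7A12. The authors made their list with limma-voom, after svaseq and RUVr had identified unwanted variation. Of the fits used here, this one is the nearest to theirs in its tools.

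With those surrogate variables 10 of the members called for pergolide and 7 of those called for dexfenfluramine were called as well. SLC44A1, SLC30A7, SLC39A10, SLC22A2, SLC22A22 and SLC16A9 were called in both fits for both drugs, SLC7A2, SLC43A3, SLC6A6 and SLC31A2 for pergolide and SLC24A1 for dexfenfluramine. SLC39A10 was then at 0.40 for each drug. The other calls against controls given below were lost in that fit. Among them, the log2 fold change for pergolide was 0.17 for SLC29A3, 0.17 for SLC35A3, 0.41 for SLC35B3, 0.19 for SLC4A7, 0.46 for SLC22A17 and 0.15 for SLC38A2. For dexfenfluramine it was 0.13 for SLC29A3, 0.47 for SLC35B3, 0.25 for SLC38A9, 0.098 for SLC30A6 and -0.067 for SLC25A32. Each of these values was smaller in size than edgeR's by more than 1.5 times. Some other lost calls had values close to edgeR's or larger. For pergolide these included 1.08 for SLC27A3, 0.94 for SLC25A16, 0.58 for SLC43A2 and 0.98 for SLC1A3, and for dexfenfluramine 1.98 for SLC7A7.

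**Figure D1:**
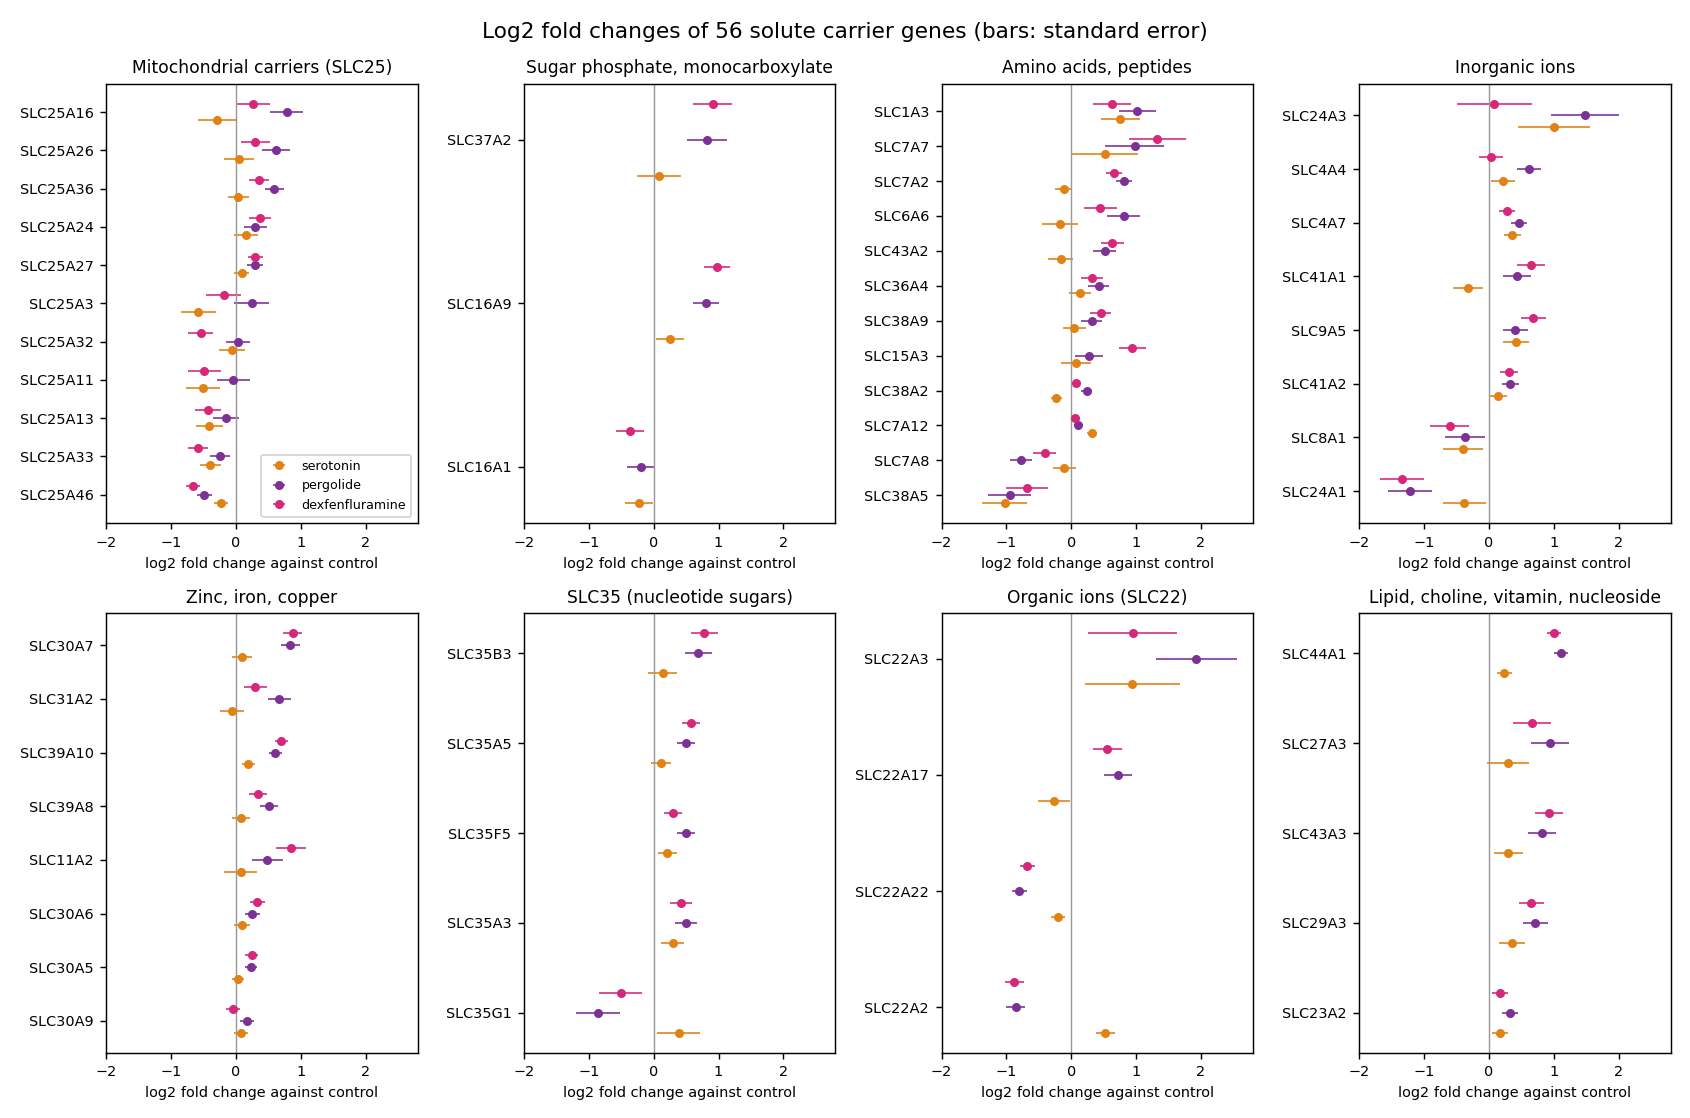
Log2 fold change against control valves (x axis) of 56 of the 57 tested solute carrier genes, in 8 panels by substrate class, for serotonin, pergolide and dexfenfluramine; bars are standard errors, with 5 valves per group. The points of the metal, lipid and SLC35 panels lie mostly to the right of 0 for both drugs, whereas SLC25A46, SLC24A1, SLC22A2 and SLC22A22 lie to the left.

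Of the zinc, iron and copper carriers some were called higher after each drug and none lower. All 8 tested members had a positive log2 fold change after pergolide and 7 after dexfenfluramine, and 4 were called higher and none lower for each drug (where 12.1% and 13.5% of all genes were called higher), with medians of 0.49 and 0.33. SLC30A7, which loads zinc into the Golgi apparatus and the vesicles of the secretory pathway, was at 6.13, 8.94, 8.602, 7.65 and 5.75 CPM in the control valves, 6.99, 8.23, 8.47, 8.04 and 8.15 CPM after serotonin, 13.6, 13.5, 12.4, 14.8 and 12.5 CPM after pergolide, and 14.2, 13.4, 17.6, 10.6 and 12.5 CPM after dexfenfluramine. Every drug-treated valve was above every control and every serotonin valve. The log2 fold change was 0.84 ± 0.15 (SE, n = 5 per group) for pergolide, 0.87 ± 0.15 for dexfenfluramine and 0.09 ± 0.16 for serotonin. SLC39A10, a plasma membrane importer of zinc, was at 86.2, 95.6, 105, 92.96 and 105 CPM in the control valves, 137, 92.4, 99.6, 103 and 120.5 CPM after serotonin, 131, 143, 139, 169 and 157 CPM after pergolide, and 153, 159.8, 176, 143 and 153 CPM after dexfenfluramine. No drug-treated valve was as low as a control valve, while serotonin replicate 1, at 137 CPM, lay within the range of the pergolide valves. Its log2 fold change was 0.61 ± 0.10 for pergolide, 0.69 ± 0.10 for dexfenfluramine and 0.19 ± 0.10 for serotonin.

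SLC11A2, the carrier of ferrous iron known as DMT1, was at 3.25, 4.34, 4.04, 5.88 and 3.91 CPM in the control valves, 4.43, 2.53, 4.68, 4.83 and 5.899 CPM after serotonin, 7.28, 6.32, 6.11, 6.16 and 4.09 CPM after pergolide, and 11.8, 6.38, 5.58, 6.896 and 8.18 CPM after dexfenfluramine. The dexfenfluramine valves reached the highest values, and 5.58 CPM in replicate 3 lay below the highest control valve. On the log2 scale the difference from controls was 0.85 ± 0.23 for dexfenfluramine, which was called but not with svaseq variables (0.75), and 0.48 ± 0.24 for pergolide, which was not. The copper carrier SLC31A2 had 4.85 ± 0.803 CPM (mean ± SD, n = 5) in controls and 7.81 ± 0.305 CPM after pergolide, without overlap, with a log2 fold change of 0.67 ± 0.17 for pergolide and 0.30 ± 0.18 for dexfenfluramine. SLC39A8, which imports zinc and manganese, was called for pergolide, at 0.51 ± 0.14, and was at 0.34 ± 0.14 for dexfenfluramine. SLC30A5 and SLC30A6, which pair to carry zinc into the early secretory pathway, differed less from controls. Their log2 fold changes were 0.23 ± 0.10 and 0.25 ± 0.11 for pergolide and 0.24 ± 0.10 and 0.33 ± 0.11 for dexfenfluramine, of which that of SLC30A6 for dexfenfluramine was called. With svaseq variables they were 0.022 and 0.067 for pergolide and 0.066 and 0.098 for dexfenfluramine. SLC30A9, a zinc carrier of mitochondria, had 0.17 ± 0.11 and -0.05 ± 0.11. Under serotonin the 8 log2 fold changes lay between -0.07 and 0.19 and none was called.

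**Figure D2:**
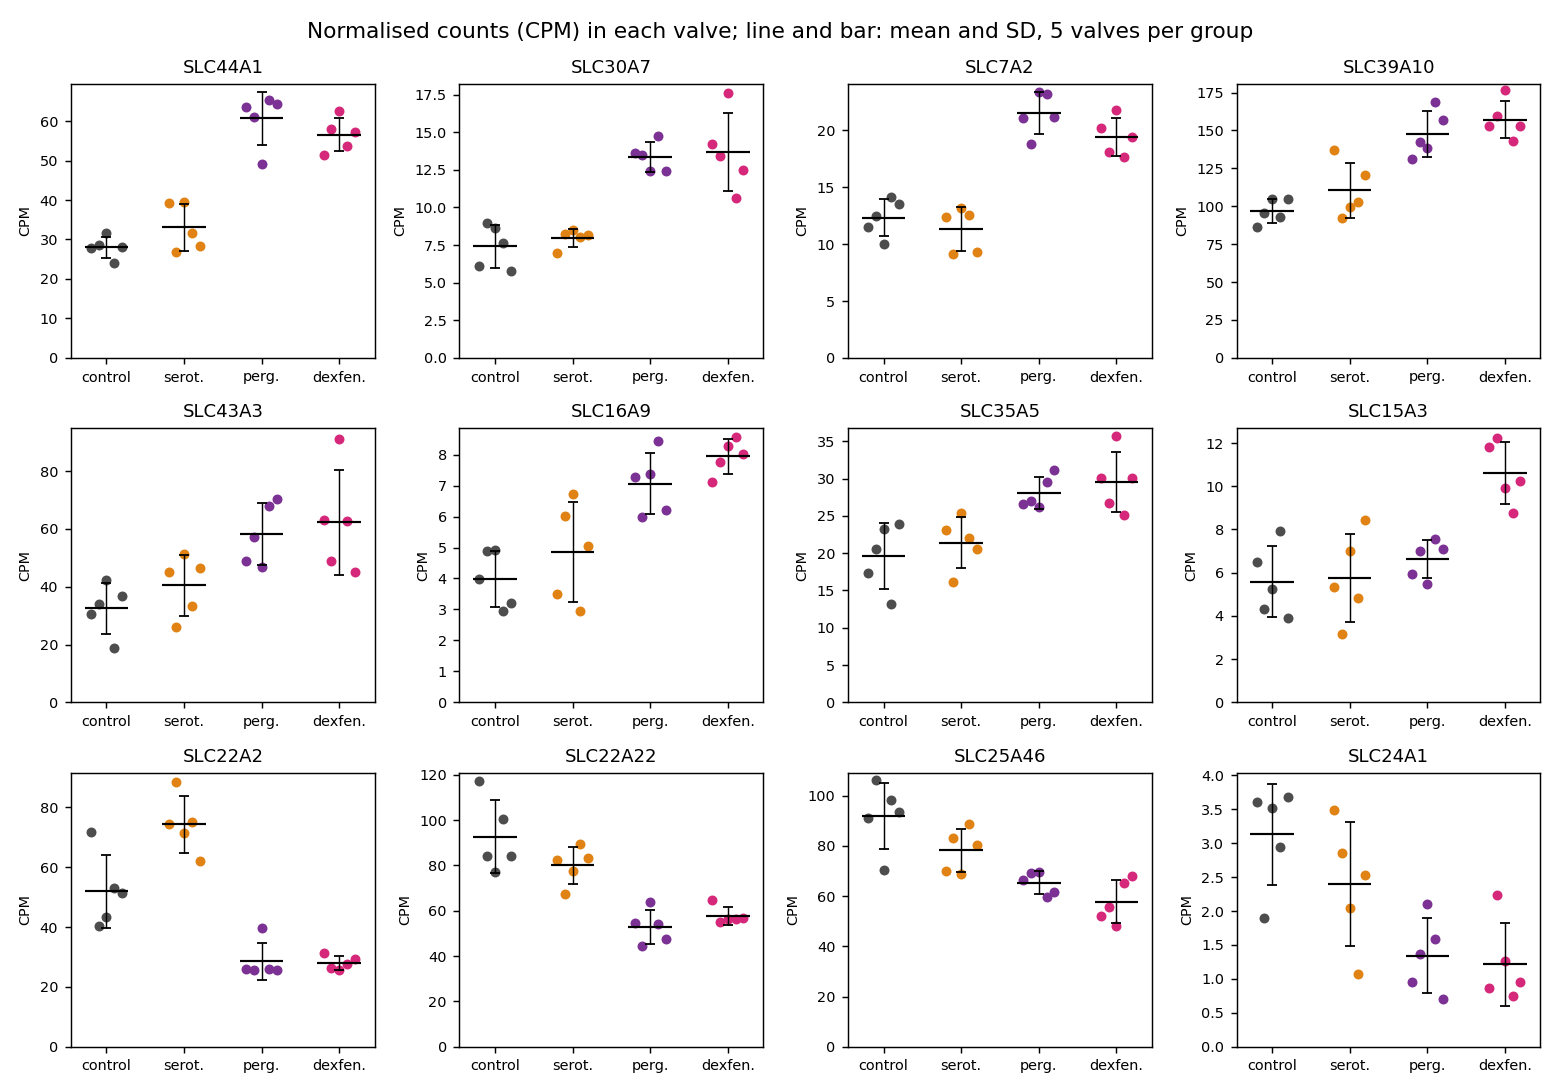
CPM of 12 carriers in each of the 20 valves (points), with mean (line) and SD (bar) of the 5 valves per group; serot., perg. and dexfen. stand for serotonin, pergolide and dexfenfluramine. SLC44A1, SLC30A7 and SLC7A2 are higher in all 10 drug-treated valves than in the other 10 valves, and SLC22A2 and SLC22A22 are lower, while SLC15A3 is higher in the dexfenfluramine valves than in those of each other group.

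Among the carriers of choline, fatty acids, vitamins and nucleosides, the 5 tested members had positive log2 fold changes after all 3 treatments. Their median was 0.82 for pergolide, 0.66 for dexfenfluramine and 0.29 for serotonin, and 4, 3 and 0 were called, all higher (against 12.1%, 13.5% and 1.04% of all genes). With the surrogate variables of svaseq the median for dexfenfluramine was 0.40. SLC44A1, a choline transporter that feeds the synthesis of membrane phospholipids, was at 27.8, 28.7, 31.6, 24.1 and 28.1 CPM in the control valves, 39.1, 26.9, 39.5, 31.6 and 28.4 CPM after serotonin, 63.6, 60.99, 49.1, 65.4 and 64.2 CPM after pergolide, and 51.4, 57.9, 62.5, 53.7 and 57.2 CPM after dexfenfluramine. The lowest drug-treated valve, pergolide replicate 3, had 49.1 CPM, and the highest of the other 10 valves, serotonin replicate 3, had 39.5 CPM. Against controls the log2 fold change was 1.11 ± 0.11 for pergolide, 1.01 ± 0.11 for dexfenfluramine and 0.24 ± 0.12 for serotonin. SLC43A3, which takes up purine nucleobases, was at 30.7, 34.1, 42.5, 18.8 and 36.8 CPM in the control valves, 45.2, 25.95, 51.4, 33.3 and 46.3 CPM after serotonin, 48.8, 57.1, 46.8, 67.9 and 70.3 CPM after pergolide, and 63.3, 48.9, 91.3, 62.8 and 45.04 CPM after dexfenfluramine. Both drug groups lay above the controls, and the serotonin valves overlapped all other groups. In log2 fold change this was 0.82 ± 0.22 for pergolide, 0.92 ± 0.22 for dexfenfluramine and 0.30 ± 0.22 for serotonin. The value for dexfenfluramine was 0.40, and not called, with the surrogate variables of svaseq.

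SLC27A3, of the fatty acid transport protein family, had few reads and was at 1.804, 2.17, 2.81, 0.588 and 3.68 CPM in the control valves, 2.33, 3.16, 2.63, 2.68 and 3.37 CPM after serotonin, 4.79, 3.25, 5.48, 3.52 and 5.34 CPM after pergolide, and 2.37, 3.96, 5.04, 3.17 and 3.69 CPM after dexfenfluramine. Control replicate 5 lay above the lowest valves of both drug groups. The log2 fold change was 0.94 ± 0.29 for pergolide, called, and 0.66 ± 0.30 for dexfenfluramine, not called. The call for pergolide was lost when any one of control replicates 1, 2 and 4 or pergolide replicates 3 and 5 was left out, with log2 fold changes that moved by less than 1.5 times. SLC29A3, a nucleoside carrier of lysosomes, had 5.41 ± 1.14 CPM in controls, 9.03 ± 1.17 CPM after pergolide and 8.67 ± 1.71 CPM after dexfenfluramine, and neither drug group overlapped the controls. SLC23A2, a sodium-coupled carrier of vitamin C, had log2 fold changes of 0.32 ± 0.12 and 0.17 ± 0.12 and was called for neither, and with svaseq variables it was 0.53 for pergolide, which was called.

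The best known members of SLC35 carry nucleotide sugars and the sulphate donor PAPS into the Golgi apparatus. The 4 members SLC35A3, SLC35A5, SLC35B3 and SLC35F5 were called higher after pergolide (12.1% of all genes), and SLC35A5 and SLC35B3 after dexfenfluramine as well (13.5% of all genes), out of 5 tested members of the family. SLC35B3, a PAPS carrier, was at 3.97, 9.21, 8.95, 5.88 and 7.59 CPM in the control valves, 8.62, 7.91, 11.4, 8.31 and 3.93 CPM after serotonin, 11.9, 10.3, 10.7, 14.1 and 11.9 CPM after pergolide, and 14.2, 11.03, 12.6, 11.4 and 13.6 CPM after dexfenfluramine. The drug groups lay above the controls, while serotonin replicate 3 lay among the drug-treated valves. Its log2 fold change was 0.69 ± 0.21 for pergolide, 0.78 ± 0.21 for dexfenfluramine and 0.14 ± 0.23 for serotonin. The call for pergolide was lost without control replicate 1, control replicate 4 or pergolide replicate 4. SLC35A5 was at 17.3, 20.6, 23.2, 13.2 and 23.9 CPM in the control valves, 23.1, 16.1, 25.4, 21.99 and 20.5 CPM after serotonin, 26.6, 26.99, 26.1, 29.5 and 31.1 CPM after pergolide, and 30.1, 26.7, 35.6, 25.2 and 30.1 CPM after dexfenfluramine. No drug-treated valve fell to the level of the highest control valve, and the log2 fold change was 0.50 ± 0.14 for pergolide and 0.57 ± 0.14 for dexfenfluramine. Both calls were lost with svaseq variables, where the values were 0.40 and 0.33.

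SLC35A3, which carries UDP-N-acetylglucosamine, had log2 fold changes of 0.49 ± 0.17 and 0.42 ± 0.17, and SLC35F5 had 0.49 ± 0.14 and 0.30 ± 0.14. SLC35G1 differed from its family and was at 4.69, 7.59, 12.6, 4.71 and 11.5 CPM in the control valves, 10.02, 6.01, 16.4, 11.3 and 11.8 CPM after serotonin, 6.32, 3.93, 1.69, 4.75 and 6.58 CPM after pergolide, and 5.16, 8.100, 8.099, 4.100 and 4.33 CPM after dexfenfluramine. The control valves spread between 4.69 and 12.6 CPM and overlapped both drug groups. On the log2 scale the difference from controls was -0.86 ± 0.34 for pergolide and -0.51 ± 0.33 for dexfenfluramine, neither called against controls. With svaseq variables both were called, at -1.19 and -1.03. Against serotonin, the log2 difference was -1.24 ± 0.34 for pergolide and -0.89 ± 0.33 for dexfenfluramine, and both were called.

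The 4 members of SLC22, carriers of organic cations and anions, moved in both directions. SLC22A2, the organic cation transporter OCT2, whose known substrates include monoamines such as serotonin, was at 71.8, 40.4, 43.4, 52.9 and 51.3 CPM in the control valves, 74.3, 88.3, 71.6, 75.1 and 62.1 CPM after serotonin, 25.9, 25.6, 39.6, 26.03 and 25.8 CPM after pergolide, and 31.4, 26.2, 25.7, 27.6 and 29.3 CPM after dexfenfluramine. All drug-treated valves lay below all others, by a narrow gap between 39.6 CPM in pergolide replicate 3 and 40.4 CPM in control replicate 2. Against controls the log2 fold change was -0.86 ± 0.15 for pergolide and -0.88 ± 0.15 for dexfenfluramine, and 0.52 ± 0.14 for serotonin. The last was not called with edgeR and all valves, and was called with DESeq2's test, with limma-voom, with svaseq variables and without control replicate 1. Against serotonin the log2 difference was -1.38 ± 0.15 for pergolide and -1.40 ± 0.15 for dexfenfluramine, the most negative of the 57 members in each of both comparisons. SLC22A22 was at 117, 84.00, 77.2, 100.3 and 84.2 CPM in the control valves, 82.5, 67.4, 77.4, 89.6 and 83.1 CPM after serotonin, 54.8, 44.3, 63.8, 53.99 and 47.7 CPM after pergolide, and 64.8, 54.97, 56.2, 56.3 and 56.6 CPM after dexfenfluramine. It too was lower in all drug-treated valves than in the other valves, with log2 fold changes of -0.80 ± 0.11 for pergolide, -0.68 ± 0.11 for dexfenfluramine and -0.21 ± 0.11 for serotonin.

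SLC22A3, the organic cation transporter OCT3, was close to the limit of detection. It was at 0, 0, 1.05, 0.882 and 0.9204 CPM in the control valves, 2.097, 0.949, 0.877, 1.61 and 0.562 CPM after serotonin, 3.64, 3.08, 2.11, 2.29 and 1.42 CPM after pergolide, and 0.645, 2.93, 0, 1.49 and 1.12 CPM after dexfenfluramine. A value of 0 here is a count of 0, which allows up to 3 counts in that valve. All pergolide valves lay above all control valves, and the log2 fold change was 1.93 ± 0.63 for pergolide, 0.95 ± 0.69 for dexfenfluramine and 0.94 ± 0.73 for serotonin. Of these the first was called, and it was lost without control replicate 1 or 2 or pergolide replicate 1 or 2. With the surrogate variables of svaseq it was 0.73. Dexfenfluramine replicate 3, where SLC22A3 had no count, also had the lowest sum of adipocyte markers, 3.24 CPM, and pergolide replicate 1, with the highest SLC22A3 level, had the highest sum of all valves, 176 CPM. Serotonin replicate 1 was likewise the highest of its group in both, and pergolide replicate 2, with 3.08 CPM and a sum of 169 CPM, came after replicate 1 in both. In some other valves the orders differed. Pergolide replicate 5, lowest of its group for SLC22A3, had a sum of 115 CPM, while replicate 4, with the lowest sum of the group, 55.6 CPM, had 2.29 CPM of SLC22A3. In the dexfenfluramine group SLC22A3 was highest in replicate 2 and the marker sum in replicate 5. How often other genes match the marker sum in this way was not counted, so nothing particular to SLC22A3 is read from the matches. Whether fat adhering to the valve takes part was not tested. SLC22A17, which binds lipocalin 2, had 4.18 ± 0.966 CPM in controls, 3.49 ± 1.01 CPM after serotonin, 6.97 ± 1.67 CPM after pergolide and 6.21 ± 1.05 CPM after dexfenfluramine, and its log2 fold change of 0.72 ± 0.22 for pergolide was called.

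Amino acid and peptide carriers made up the largest class, with 14 members of which 12 were tested. After pergolide 5 were called higher and 2 lower, after dexfenfluramine 5 higher and none lower, which is 58.3% and 41.7% of the class against 24.8% and 28.9% of all genes. The medians were 0.37 and 0.45, and that for pergolide was 0.14 with the surrogate variables of svaseq. SLC7A2, a carrier of arginine and lysine chosen for description after its values were seen, was at 11.5, 12.5, 10.01, 14.1 and 13.6 CPM in the control valves, 12.3, 9.18, 13.2, 12.6 and 9.27 CPM after serotonin, 21.1, 18.8, 23.4, 23.2 and 21.2 CPM after pergolide, and 20.2, 18.1, 21.8, 17.7 and 19.4 CPM after dexfenfluramine. All 10 drug-treated valves were above the other 10 valves, and the log2 fold change was 0.81 ± 0.12 for pergolide, 0.66 ± 0.12 for dexfenfluramine and -0.12 ± 0.13 for serotonin. With svaseq variables SLC7A2 was called for pergolide and not for dexfenfluramine. SLC7A7, a light chain that exchanges cationic for neutral amino acids, was at 2.16, 0, 2.11, 0.588 and 1.15 CPM in the control valves, 1.16, 2.22, 2.05, 1.61 and 1.97 CPM after serotonin, 4.02, 3.42, 1.05, 1.41 and 2.31 CPM after pergolide, and 4.09, 3.102, 3.24, 2.24 and 3.05 CPM after dexfenfluramine. The dexfenfluramine valves lay above all control valves and the pergolide valves did not. The log2 fold change was 1.33 ± 0.44 for dexfenfluramine, called, and 0.98 ± 0.46 for pergolide, not called. The call was lost without control replicate 2, 4 or 5 or dexfenfluramine replicate 1.

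SLC38A5, a sodium-coupled carrier of glutamine and other neutral amino acids, was at 10.8, 10.03, 10.5, 18.8 and 5.52 CPM in the control valves, 4.19, 4.75, 4.68, 6.44 and 7.02 CPM after serotonin, 6.896, 4.61, 6.11, 5.28 and 5.69 CPM after pergolide, and 8.82, 4.65, 3.96, 3.54 and 13.3 CPM after dexfenfluramine. The control and dexfenfluramine valves spread more widely than those of the other groups, and control replicate 4 was the highest of all 20 valves. Its log2 fold change was -1.03 ± 0.35 for serotonin, -0.95 ± 0.33 for pergolide and -0.68 ± 0.32 for dexfenfluramine. Pergolide alone was called, and that call was lost without control replicate 1, 3 or 4 or pergolide replicate 2, 3, 4 or 5. SLC1A3, the glutamate transporter EAAT1, was at 3.61, 1.897, 1.93, 1.47 and 1.84 CPM in the control valves, 4.89, 2.53, 3.799, 2.41 and 3.93 CPM after serotonin, 7.09, 3.25, 3.58, 3.52 and 3.91 CPM after pergolide, and 2.58, 3.79, 2.88, 4.100 and 2.89 CPM after dexfenfluramine. Control replicate 1 and pergolide replicate 1 stood above the rest of their groups, and the log2 fold change was 1.02 ± 0.29 for pergolide, 0.63 ± 0.29 for dexfenfluramine and 0.76 ± 0.30 for serotonin.

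SLC15A3, a carrier of peptides and histidine in the lysosomal membrane, was picked out after its values were seen because dexfenfluramine set it apart. It was at 6.49, 4.34, 5.27, 7.94 and 3.91 CPM in the control valves, 5.36, 3.16, 7.01, 4.83 and 8.43 CPM after serotonin, 5.94, 7.005, 5.48, 7.56 and 7.12 CPM after pergolide, and 11.8, 12.2, 9.899, 8.76 and 10.3 CPM after dexfenfluramine. Each dexfenfluramine valve was above every valve of the other groups. On the log2 scale the difference from controls was 0.94 ± 0.21 for dexfenfluramine, 0.27 ± 0.22 for pergolide and 0.07 ± 0.23 for serotonin. With svaseq variables SLC15A3 was not called for dexfenfluramine. The branched-chain and aromatic amino acid carriers SLC43A2 and SLC7A8 went in opposite directions. SLC43A2 had log2 fold changes of 0.51 ± 0.18 for pergolide and 0.63 ± 0.18 for dexfenfluramine, both called, and SLC7A8 had -0.78 ± 0.18, called, and -0.41 ± 0.17, not called. The taurine transporter SLC6A6 had 0.81 ± 0.25 for pergolide, called, and 0.45 ± 0.26 for dexfenfluramine.

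SLC38A2, a sodium-coupled carrier of neutral amino acids, was at 113 ± 9.05 CPM in controls, 96.3 ± 6.15 CPM after serotonin, 133 ± 10.1 CPM after pergolide and 119 ± 12.5 CPM after dexfenfluramine. Each drug group lay wholly above the serotonin group, by 0.47 ± 0.08 and 0.31 ± 0.08 on the log2 scale. SLC38A9, a lysosomal arginine sensor, had a log2 fold change of 0.45 ± 0.16 for dexfenfluramine, called, and 0.31 ± 0.16 for pergolide, and SLC36A4 had 0.32 ± 0.17 and 0.42 ± 0.17, not called. SLC7A12 was the member called for serotonin and is shown for that reason, chosen after its values were seen. It was at 45.8, 43.9, 41.8, 41.8 and 46.5 CPM in the control valves, 55.2, 54.8, 56.98, 56.04 and 51.4 CPM after serotonin, 43.5, 47.5, 47.4, 43.8 and 54.6 CPM after pergolide, and 43.9, 45.2, 42.5, 49.9 and 47.9 CPM after dexfenfluramine. The 5 serotonin valves lay above all control valves, with a log2 fold change of 0.32 ± 0.08. Its identifier rests on a shortened printing in the list, and the call held with DESeq2's test and limma-voom and was lost in the other 7 fits with all valves of the groups. Of the 10 fits without one valve, only those without control replicate 1 or 3 kept it.

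Both members that failed the filter belong to this class. SLC38A3, a glutamine carrier, had 14, 15, 4, 8 and 10 counts in controls, 0, 0, 4, 5 and 2 after serotonin, 5, 12, 3, 9 and 6 after pergolide and 6, 4, 2, 6 and 16 after dexfenfluramine. SLC7A10, a carrier of small neutral amino acids that is prominent in fat cells, had 0, 0, 0, 1 and 0 counts in controls, 5, 2, 0, 2 and 1 after serotonin, 3, 4, 7, 13 and 5 after pergolide and 3, 3, 2, 1 and 6 after dexfenfluramine. With 1 count over all control valves, no fold change is given for it. The heavy chain partners SLC3A1 and SLC3A2 had no symbol in the list and were not analysed here.

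The 11 mitochondrial carriers of SLC25 were the class in which the drugs had opposite medians, 0.24 for pergolide and -0.19 for dexfenfluramine, with -0.23 for serotonin. With the surrogate variables of svaseq the median for dexfenfluramine was 0.24, and without dexfenfluramine replicate 3 it was -0.0074. It was -0.36 without control replicate 3 and -0.43 when 10 counts were required of each valve. The median for serotonin was -0.090 with svaseq variables. The median for pergolide was 0.076 without control replicate 3 and 0.016 when 10 counts were required of each valve. After pergolide 3 were called higher and 1 lower, and after dexfenfluramine none were called higher and 3 lower. These are 36.4% and 27.3% of the class, against 24.8% and 28.9% of all genes, so the share called for dexfenfluramine was near that of all genes. SLC25A46, an outer membrane protein that acts in mitochondrial fusion and fission, was at 90.9, 106, 70.6, 98.3 and 93.4 CPM in the control valves, 70.1, 83.2, 68.96, 88.8 and 80.3 CPM after serotonin, 66.5, 69.4, 69.5, 59.8 and 61.6 CPM after pergolide, and 52.1, 55.7, 48.1, 65.2 and 67.97 CPM after dexfenfluramine. All valves of both drug groups were below all control valves, and the log2 fold change was -0.49 ± 0.11 for pergolide, -0.67 ± 0.11 for dexfenfluramine and -0.23 ± 0.11 for serotonin. With svaseq variables it was -0.29 for pergolide and -0.34 for dexfenfluramine, and neither was called. SLC25A16 was at 2.53, 3.52, 3.34, 1.18 and 2.99 CPM in the control valves, 2.795, 2.85, 1.75, 2.15 and 1.69 CPM after serotonin, 6.32, 4.27, 4.85, 3.52 and 4.98 CPM after pergolide, and 2.797, 3.27, 4.14, 4.100 and 2.24 CPM after dexfenfluramine. Pergolide replicate 4 and control replicate 2 both had 3.52 CPM, and the other pergolide valves lay above all control valves. Against controls the log2 fold change was 0.78 ± 0.25 for pergolide, 0.25 ± 0.26 for dexfenfluramine and -0.29 ± 0.29 for serotonin. The call for pergolide was lost without control replicate 1 or 4 or pergolide replicate 1 or 5.

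SLC25A26, which brings S-adenosylmethionine into mitochondria for methylation, was at 2.53, 1.63, 2.46, 3.24 and 3.45 CPM in the control valves, 3.03, 3.16, 2.34, 3.22 and 1.97 CPM after serotonin, 4.597, 4.78, 4.21, 3.87 and 3.02 CPM after pergolide, and 3.87, 3.79, 3.06, 2.98 and 2.73 CPM after dexfenfluramine. The pergolide and control valves overlapped, and the log2 fold change was 0.62 ± 0.22 for pergolide, and 0.30 ± 0.22 for dexfenfluramine. The former was called, and the call was lost without control replicate 1, 2 or 3 or any of pergolide replicates 1 to 4. The pyrimidine nucleotide carriers SLC25A33 and SLC25A36 differed in direction. SLC25A33 had -0.58 ± 0.15 for dexfenfluramine, called, and -0.25 ± 0.15 for pergolide, whereas SLC25A36 had 0.59 ± 0.15 for pergolide, called, and 0.36 ± 0.15 for dexfenfluramine. SLC25A32, a carrier of folate and flavin, had -0.55 ± 0.19 for dexfenfluramine, called, and 0.03 ± 0.19 for pergolide. SLC25A24 and SLC25A27 had positive log2 fold changes between 0.29 and 0.37 for both drugs, and none was called.

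The phosphate carrier SLC25A3, the oxoglutarate carrier SLC25A11, the aspartate-glutamate carrier SLC25A13 and the sodium-calcium exchanger SLC8A1 varied widely within groups. SLC25A3, taken up here after its values were seen, was at 433, 432, 207, 542 and 367 CPM in the control valves, 197, 349, 228, 327 and 219.9 CPM after serotonin, 545, 595, 547, 365 and 284 CPM after pergolide, and 424, 332, 159, 354 and 465 CPM after dexfenfluramine. The lowest valves were control replicate 3, serotonin replicate 1, pergolide replicate 5 and dexfenfluramine replicate 3, and these were also the valves with the lowest summed cardiomyocyte markers of their groups. The same 4 valves were the lowest for SLC25A11 and SLC8A1 as well, which makes 3 of 57 members (5.26%) against 3.35% of all genes. For SLC25A13 and SLC6A6 the lowest valves matched in 3 of 4 groups, which is 3.51% of members against 7.43% of all genes, so nothing particular to the carriers is read from these matches. The median sum of cardiomyocyte markers was 105761 CPM in controls, 63350 CPM after serotonin, 81782 CPM after pergolide and 60207 CPM after dexfenfluramine, and the part of heart muscle RNA in these carriers' levels was not tested. The log2 fold change of SLC25A3 was -0.58 ± 0.27 for serotonin, 0.24 ± 0.27 for pergolide and -0.19 ± 0.27 for dexfenfluramine. SLC25A11 had -0.51 ± 0.27, -0.05 ± 0.25 and -0.49 ± 0.26, and SLC25A13 had -0.41 ± 0.21, -0.16 ± 0.20 and -0.43 ± 0.20. SLC8A1, the exchanger that removes calcium from heart muscle cells, was at 182 ± 76.9 CPM in controls, 137 ± 38.7 CPM after serotonin, 140.0 ± 41.5 CPM after pergolide and 119 ± 42.4 CPM after dexfenfluramine, with log2 fold changes of -0.40 ± 0.31, -0.37 ± 0.30 and -0.61 ± 0.30. None of these 4 genes was called against controls in edgeR's fit. With svaseq variables SLC25A3 was called higher for both drugs, at 0.69 and 0.68, which for dexfenfluramine is a change of sign, and SLC25A11, at 0.52, was called higher for pergolide, where edgeR's value was -0.05. In that fit other values of these genes also changed sign without being called. For dexfenfluramine SLC25A11 was at 0.42, SLC25A13 at 0.24 and SLC8A1 at 0.13, for pergolide SLC25A13 was at 0.37, and for serotonin SLC25A13 was at 0.039 and SLC8A1 at 0.064. The directions of these carriers therefore depend on the fit.

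**Figure D3:**
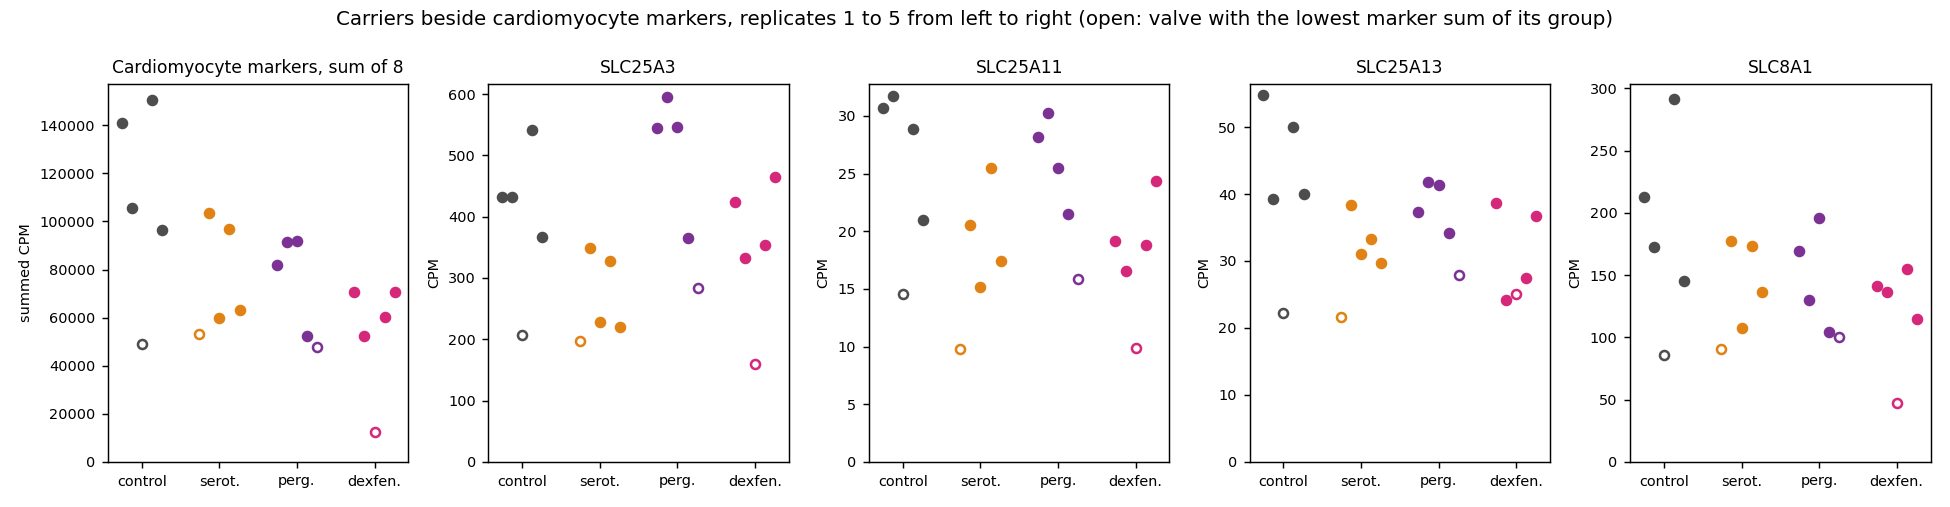
Summed CPM of 8 cardiomyocyte markers (left) and CPM of SLC25A3, SLC25A11, SLC25A13 and SLC8A1 in each valve, replicates 1 to 5 of a group from left to right; the open circle is the valve with the lowest marker sum of its group. The open circle is the lowest of its group in all panels but that of SLC25A13, where dexfenfluramine replicate 2 lies below dexfenfluramine replicate 3.

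Besides SLC8A1, the ion carriers exchange or cotransport sodium, potassium, calcium, protons, bicarbonate and magnesium. Of the 9 tested members of this class, 4 were called higher and 1 lower for pergolide and 3 higher and 1 lower for dexfenfluramine, or 55.6% and 44.4% of the class against 24.8% and 28.9% of all genes. SLC24A1, a sodium-calcium-potassium exchanger, was at 3.61, 1.897, 3.51, 2.94 and 3.68 CPM in the control valves, 3.49, 2.85, 2.05, 1.07 and 2.53 CPM after serotonin, 0.958, 1.37, 2.11, 1.58 and 0.712 CPM after pergolide, and 0.861, 2.24, 1.26, 0.745 and 0.962 CPM after dexfenfluramine. Most drug-treated valves lay below most control valves, and pergolide replicate 3 and dexfenfluramine replicate 2 overlapped the lowest control valve. The log2 fold change was -1.22 ± 0.34 for pergolide, -1.34 ± 0.34 for dexfenfluramine and -0.38 ± 0.33 for serotonin. SLC24A3, another exchanger of this family, was at 1.08, 1.63, 2.81, 3.24 and 1.61 CPM in the control valves, 8.62, 2.53, 2.63, 2.95 and 4.21 CPM after serotonin, 9.39, 6.32, 4.64, 4.05 and 5.51 CPM after pergolide, and 2.37, 4.83, 0, 0.745 and 3.21 CPM after dexfenfluramine. All pergolide valves lay above all control valves, while the dexfenfluramine valves ran from a count of 0 in replicate 3 to 4.83 CPM in replicate 2. Its log2 fold change was 1.48 ± 0.53 for pergolide, 0.08 ± 0.58 for dexfenfluramine and 1.00 ± 0.56 for serotonin.

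The call of SLC24A3 for pergolide was lost without control replicate 1, 2 or 5 or pergolide replicate 1, 2 or 5, and with the surrogate variables of svaseq the value was 0.34. As for SLC22A3, the highest serotonin and pergolide valves, replicate 1 of each, were those with the most adipocyte marker RNA of their groups, 133 and 176 CPM, and the dexfenfluramine valve without a count was the one with the least. The highest control valve, replicate 4, and the lowest serotonin valve, replicate 2, matched as well, and the pergolide valves had the same order in both. The highest dexfenfluramine valve, replicate 2, was not the one with the most, nor the lowest control valve, replicate 1, the one with the least. The 3 adipocyte markers measured, of 10, have their symbols from the DEG list, so these comparisons took part in choosing them. All 3 were called higher for pergolide (12.1% of all genes), and none for serotonin or dexfenfluramine, so nothing is read from that count. As for SLC22A3, matches of other genes with the marker sum were not counted, so nothing particular to SLC24A3 is read from them. The part of fat in these values was not tested. SLC9A5, a sodium-proton exchanger, was at 9.74, 7.59, 8.08, 9.12 and 5.75 CPM in the control valves, 11.4, 7.28, 11.7, 11.3 and 11.2 CPM after serotonin, 7.66, 11.1, 13.7, 8.44 and 12.1 CPM after pergolide, and 14.4, 10.3, 16.4, 10.8 and 12.3 CPM after dexfenfluramine. The dexfenfluramine valves were above all control valves, and serotonin replicate 2 was the lowest of its group. On the log2 scale the difference from controls was 0.69 ± 0.19 for dexfenfluramine, called, and 0.41 ± 0.19 for pergolide and 0.41 ± 0.20 for serotonin, not called.

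The bicarbonate cotransporters SLC4A4 and SLC4A7 were called for pergolide, at 0.61 ± 0.18 and 0.46 ± 0.13, and were at 0.03 ± 0.19 and 0.28 ± 0.13 for dexfenfluramine. The magnesium carrier SLC41A1 was called for dexfenfluramine, at 0.65 ± 0.22, and had 0.43 ± 0.22 for pergolide, while SLC41A2 had 0.31 ± 0.13 and 0.33 ± 0.13, not called. ATP-driven pumps, which set the gradients that these carriers use, were taken as a list of 16 genes of which 10 were measured. Those 10 have their symbols from the DEG list, so like the carriers they were chosen by these comparisons. After pergolide 6 of them (12.1% of all genes) and after dexfenfluramine 7 (13.5% of all genes) were called higher and none lower, and after serotonin none was called. ATP1B3, a subunit of the sodium-potassium pump, had a log2 fold change of 1.02 for pergolide and 1.14 for dexfenfluramine, and ATP6V1A, of the proton pump of endosomes and lysosomes, had 0.78 and 0.49. The 5 SLCO carriers, which take up organic anions, also have their symbols from the DEG list. SLCO1B2 was called higher for pergolide, at 1.35 (12.1% of all genes), and SLCO2B1 for dexfenfluramine, at 1.36 (13.5% of all genes). Not called and negative were SLCO5A1, at -0.34 for pergolide and -0.78 for dexfenfluramine, and SLCO1C1, at -0.03 and -0.30.

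Sugar phosphate and monocarboxylate carriers numbered 3, and no member belonged to the glucose transporter families SLC2 or SLC5. SLC16A9, of the monocarboxylate transporter family, was at 3.97, 4.88, 4.92, 2.94 and 3.22 CPM in the control valves, 3.49, 6.01, 6.72, 2.95 and 5.06 CPM after serotonin, 7.28, 5.98, 7.38, 8.44 and 6.23 CPM after pergolide, and 7.100, 7.75, 8.28, 8.57 and 8.01 CPM after dexfenfluramine. Both drug groups lay above all control valves, and the dexfenfluramine group lay above all serotonin valves as well. Against controls the log2 fold change was 0.81 ± 0.20 for pergolide, 0.98 ± 0.20 for dexfenfluramine and 0.25 ± 0.22 for serotonin. SLC37A2, which exchanges glucose 6-phosphate for phosphate in the endoplasmic reticulum, was at 2.16, 1.08, 3.69, 1.47 and 2.76 CPM in the control valves, 3.26, 3.48, 1.75, 1.34 and 2.53 CPM after serotonin, 3.83, 4.27, 3.16, 4.57 and 4.803 CPM after pergolide, and 3.01, 4.998, 5.94, 2.98 and 4.97 CPM after dexfenfluramine. The control valves overlapped both drug groups. The log2 fold change was 0.82 ± 0.30 for pergolide, not called, and 0.91 ± 0.30 for dexfenfluramine, called in the fit of all valves and lost without control replicate 1, 2 or 4 or dexfenfluramine replicate 2, 3 or 5. SLC16A1, the lactate and pyruvate carrier MCT1, was at 53.03, 49.3, 44.8, 65.6 and 43.9 CPM in the control valves, 43.6, 49.7, 41.2, 49.6 and 34.5 CPM after serotonin, 51.3, 59.3, 42.1, 37.1 and 32.7 CPM after pergolide, and 43.03, 39.1, 21.2, 29.8 and 64.8 CPM after dexfenfluramine. Its groups overlapped, its log2 fold changes were -0.20 ± 0.22, -0.37 ± 0.22 and -0.23 ± 0.22 (pergolide, dexfenfluramine, serotonin), and none was called.

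The drug groups were also set against the serotonin group, which shares no valve with the controls. The DEG list was made from comparisons of all 3 treatments with controls, so the serotonin valves and the drug-treated valves both took part in choosing the members, and these counts too are a description. Against serotonin 22 of 57 members were called for pergolide (38.6%, against 27.5% of all genes), 17 higher and 5 lower, where 12.4% of all genes were higher and 15.1% lower. For dexfenfluramine 21 were called (36.8%, against 30.3% of all genes), 15 higher and 6 lower, where 13.9% of all genes were higher and 16.4% lower. With upper-quartile normalization 18 were higher and 4 lower. With svaseq variables 11 members were called for pergolide, 8 higher and 3 lower, against 17.3% of all genes. In that fit 8 were called for dexfenfluramine, 5 higher and 3 lower, against 15.9% of all genes. The groups did not overlap in 10 higher and 3 lower members for pergolide, against 20.3% of all genes (8.38% higher, 11.9% lower). For dexfenfluramine there were 10 higher and 4 lower, against 20.9% (8.75% higher, 12.2% lower). The median log2 difference was 0.36 for pergolide and 0.25 for dexfenfluramine, with 0.03 over all genes in each. SLC25A16 had the most positive value for pergolide, 1.08 ± 0.26, and SLC41A1 for dexfenfluramine, 0.97 ± 0.23. SLC44A1 was at 0.87 ± 0.11 and 0.77 ± 0.11, SLC30A7 at 0.75 ± 0.15 and 0.78 ± 0.15, and SLC7A2 at 0.92 ± 0.13 and 0.78 ± 0.13. In SLC7A2, SLC44A1, SLC30A7, SLC22A2 and SLC22A22 the 10 drug-treated valves did not overlap the 10 control and serotonin valves, which is 5 of 57 members (8.77%) against 7.53% of all genes. The first 3 were higher (2.73% of all genes) and the other 2 lower (4.80%).

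Between the drugs, whose daily doses differed, no solute carrier was called, nor was any of the 8683 genes (0%). The smallest adjusted p-value of a member in edgeR's quasi-likelihood test was 0.583. Without adjustment 9 members and 613 genes had a p-value under 0.05, and the other tests called no member. A missing call does not show that the drugs acted alike, and the 95% intervals give what these valves could tell. The interval of the log2 difference, dexfenfluramine minus pergolide, lay between -1 and 1 for 51 of the 57 members, and its half-width had a median of 0.36 and reached 1.08. For SLC44A1 it ran from -0.32 to 0.12, for SLC30A7 from -0.25 to 0.32 and for SLC22A2 from -0.33 to 0.28. The interval lay wholly above 0 for SLC15A3, from 0.25 to 1.09, in which alone of the members the drug groups did not overlap (1.43% of all genes, 0.887% higher and 0.541% lower). It lay wholly below 0 for SLC24A3, from -2.42 to -0.37, and for SLC4A4, from -0.95 to -0.22. Of the 11 mitochondrial carriers, 9 had a negative log2 difference, none of them called, where 4394 of the 8683 genes had one. The median of the class was -0.32 against -0.00 over all genes, in edgeR's fit. Against controls the class median for dexfenfluramine depended on the fit, at -0.19 with edgeR and 0.24 with svaseq variables. The median sum of cardiomyocyte markers was 81782 CPM after pergolide and 60207 CPM after dexfenfluramine, and its part in these values was not tested. SLC25A32 had -0.58 ± 0.19, SLC25A16 -0.53 ± 0.24 and SLC25A33 -0.33 ± 0.15, with intervals below 0 that are not adjusted for the number of genes. SLC7A8, at 0.36 ± 0.17, and the metal carriers SLC30A9, at -0.22 ± 0.11, and SLC31A2, at -0.37 ± 0.16, complete the 9 members.

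**Figure D4:**
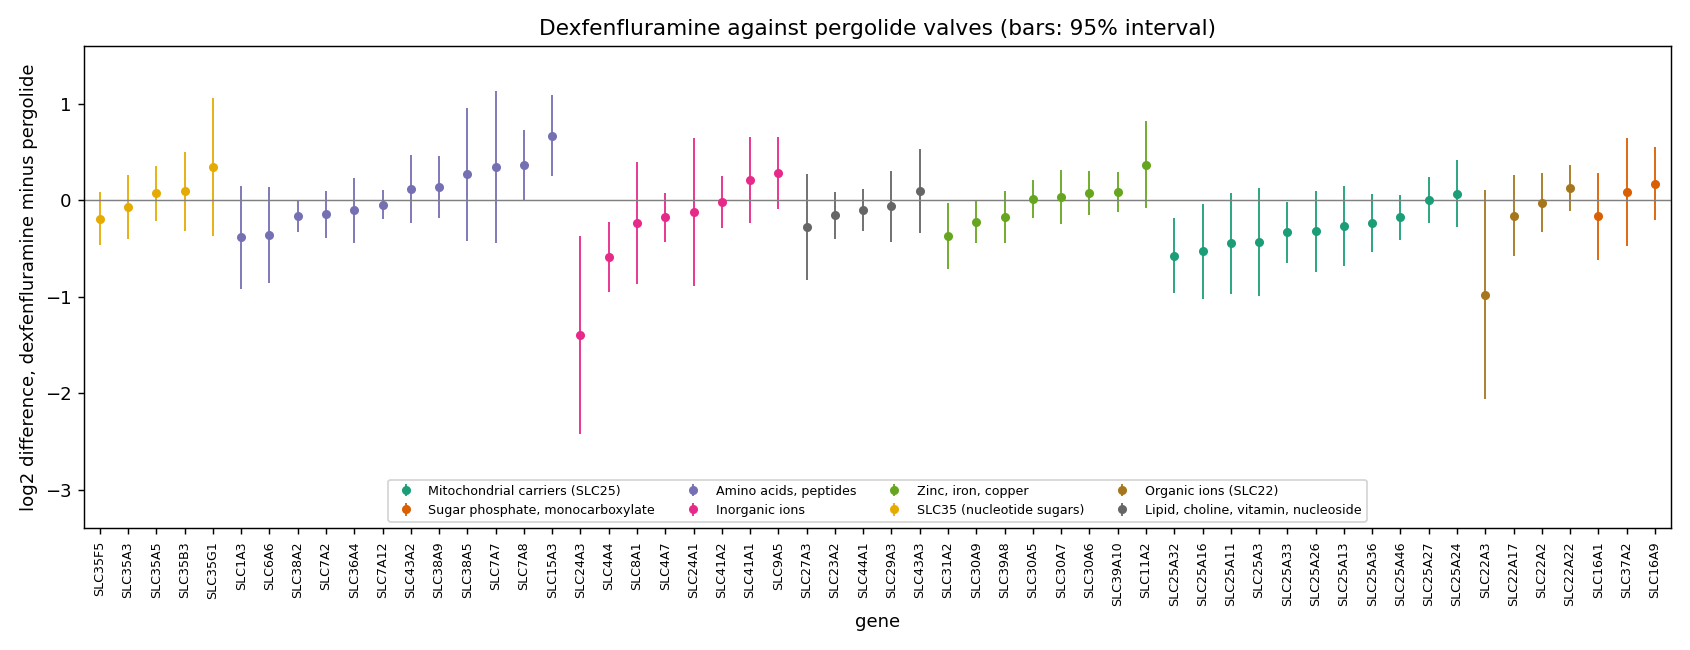
Log2 difference, dexfenfluramine minus pergolide (y axis), of 56 of the 57 tested carriers (x axis, coloured by substrate class), with 95% intervals from edgeR's fit, 5 valves per group and no adjustment for the number of genes. Most intervals include 0; those of SLC15A3 and SLC7A8 lie above it, and those of SLC24A3, SLC4A4, SLC30A9, SLC31A2, SLC25A32, SLC25A16 and SLC25A33 lie below.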

How the data were processed

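Total RNA of 20 flash-frozen tricuspid valves was depleted of ribosomal RNA and sequenced by the authors from stranded libraries. The deposited values are whole-number counts of reads per Ensembl gene, without normalization. According to the methods and the submitters' processing notes, the authors trimmed reads, aligned them to the rabbit genome oryCun2 with TopHat2 2.1.1 and counted them with HTSeq in union mode, and the notes also name Picard. Which annotation release and strand setting they used, and how reads with several alignments were treated, is not given in the sources used here, so reads of overlapping or closely similar genes may be split. Columns were assigned to valves by group letter and number.

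The table pairs identifiers with no symbols. Symbols came from the study's DEG list, whose identifiers lack or gain leading zeros in places. Identifiers were reset to 11 digits, which concerned 16 of the 59 members, and only the 43 printed in full were an alternative. The identifiers of SLC38A3 and SLC7A12 rest on a 5-digit printing. Of 42 such identifiers that are also printed in full, 39 carry the same symbol. The members, classes and lists were chosen with earlier results of these data known. Sequences of the members are not used here.

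Counts were scaled by TMM and fitted with edgeR 4.0.16 (R 4.3.3) in one quasi-likelihood model of all 20 valves after filterByExpr. P-values were adjusted by the Benjamini-Hochberg method over 8683 genes, with a threshold of 0.05. Total counts, 3247091 to 5921025 per valve, limit genes at a few CPM, and 5 valves per group limit the rest. Values valve by valve are given for the 3 members of each class with the largest absolute log2 fold change against controls and a mean of at least 1 CPM. Other members shown that way are named as chosen later. Alternatives were DESeq2 1.42.0, limma-voom (limma 3.58.1) without and with svaseq variables (sva 3.50.0), other normalizations and filters, a replicate block, only the groups compared, and each valve left out in turn. The code was tested on simulated counts. Of the tested members, 1 is counted with the others but not reported by name here or drawn. Figures were drawn with matplotlib 3.10.9.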

Additional observations from a re-analysis of the deposited data

Results flagged for a closer look

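In 8 of 96 groups of 5 valves checked (the 24 members that the naming rule chose, in 4 groups), the highest or lowest valve stood apart, with a gap to its nearest neighbour above 0.71 of the group's range (Dixon's critical value for 5 samples). Chance gives about 1 in 20. SLC1A3 was at 3.607 CPM in control replicate 1, where the other controls had 1.471 to 1.931 CPM, and at 7.087 CPM in pergolide replicate 1, where the others had 3.246 to 3.914 CPM. SLC24A3 was at 8.619 CPM in serotonin replicate 1, above 2.532 to 4.213 CPM in the other serotonin valves. SLC9A5 was at 7.279 CPM in serotonin replicate 2, below 11.24 to 11.69 CPM. SLC44A1 was at 49.1 CPM in pergolide replicate 3, below 60.99 to 65.43 CPM, and SLC22A2 was at 39.62 CPM in the same valve, above 25.63 to 26.03 CPM. SLC30A7 was at 6.989 CPM in serotonin replicate 1, below 8.044 to 8.474 CPM. SLC22A22 was at 64.76 CPM in dexfenfluramine replicate 1, above 54.97 to 56.58 CPM.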

How the results depend on the processing

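With svaseq variables, 14 members were called for pergolide and 9 for dexfenfluramine against controls, and 11 and 8 against serotonin (1156 and 987, and 1506 and 1381, of all genes). The cause was not tested. Every other setting left these counts within 1.5 times, and leaving out a valve gave 26 to 32, 19 to 32, 17 to 22 and 17 to 20. The serotonin count of 1 was 0 with only full identifiers, only the 2 groups, the replicate block, either other normalization (DESeq2's or upper-quartile) or either other filter (none, or 10 counts per valve), and 2 with DESeq2's test and limma-voom. Leaving out a valve gave 0 to 2. Under edgeR 8 members had an unadjusted p under 0.05. Between the drugs 0 members were called in every setting, and DESeq2 called 4 genes.

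Replicate numbers did not pair the valves: 6 of 30 same-numbered pairs had a correlation over 0.1 (mean -0.02, range -0.34 to 0.49), and 5 valves of 20 correlated best with their own number. The replicate block gave 27 and 23 calls for pergolide and dexfenfluramine, 20 and 18 against serotonin, and 0 for serotonin. Of 33 called values of the 24 members that the naming rule chose, it lost 4, and it also lost SLC7A12 for serotonin.

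Class medians moved as follows. With svaseq variables they were, for serotonin, -0.090 (mitochondrial), 0.38 (organic ions) and -0.12 (sugars and monocarboxylates); for pergolide, 0.14 (amino acids) and 0.34 (metals); for dexfenfluramine, 0.064 (ions), 0.40 (lipids) and 0.24 (mitochondrial, with a change of sign). With 10 counts required of each valve, which tests 45 members, they were -0.14 (amino acids, serotonin), 0.016 and -0.43 (mitochondrial, pergolide and dexfenfluramine), -0.84 and -0.78 (organic ions), and 0.29 and 0.30 (sugars). With only the 2 groups, which tests fewer members, they were -0.12 (amino acids, serotonin) and -0.22, -0.80 and -0.68 (organic ions, serotonin, pergolide and dexfenfluramine). Without one valve, they ran from -0.093 to 0.35 (sugars, serotonin), 0.30 to 0.48 (amino acids, pergolide), 0.076 to 0.26 (mitochondrial, pergolide), 0.60 to 0.91 (lipids, dexfenfluramine) and -0.36 to -0.0074 (mitochondrial, dexfenfluramine). The last was -0.0074 without dexfenfluramine replicate 3, the valve with the fewest cardiomyocyte markers, and -0.36 without control replicate 3. The value of 0.076 is also that without control replicate 3.

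Some values that edgeR did not call changed sign. With svaseq variables those for dexfenfluramine of SLC25A3 (0.68), SLC25A11 (0.42), SLC25A13 (0.24), SLC8A1 (0.13), SLC30A9 (0.22), SLC36A4 (-0.037), SLC25A24 (-0.0019) and SLC4A4 (-0.18) did so, as did those for pergolide of SLC25A11 (0.52) and SLC25A13 (0.37). With svaseq variables the log2 fold change for serotonin was -0.019 for SLC30A7, 0.035 for SLC22A22, -0.026 for SLC35B3 and -0.21 for SLC37A2, and that for dexfenfluramine was 0.12 for SLC16A1. SLC24A3 for dexfenfluramine was -0.76 with limma-voom, -0.60 with svaseq variables and -0.094 with the replicate block. Without one valve, the serotonin values ran from -0.046 to 0.20 for SLC11A2, -0.089 to 0.16 for SLC25A26, -0.014 to 0.31 for SLC35B3, -0.0013 to 0.19 for SLC35A5 and -0.093 to 0.38 for SLC37A2, and that of SLC24A3 for dexfenfluramine from -0.41 to 0.40. Of the 33 called values, 19 were not called with svaseq variables, 10 of them under no other setting, 9 were lost without some valve, and 14 were lost in no setting that tested them: SLC44A1, SLC30A7, SLC39A10, SLC22A2, SLC22A22 and SLC16A9 for both drugs, SLC43A3 for pergolide and SLC24A1 for dexfenfluramine. SLC24A1 was tested in 7 of the 9 other fits with all valves of the groups. Counts of solute carrier genes that the list leaves out, planned from reference names, were not run, because those names could not be joined to the identifiers. Depth limits members at a few CPM, such as SLC22A3, SLC7A7 and SLC24A3.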
